A study of Mus musculus with 12 samples.

Results

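DEAD-box and DEAH-box proteins other than Ddx55 were followed in CD4+ T cells that had lost or kept Ddx55. The members were the DDX, DHX and EIF4A helicases on a list of names. The list leaves out Ddx55 itself, the RIG-I-like sensors of viral RNA and some further genes with DDX names, such as Ddx11, Ddx43 and Ddx60. That gave 47 of the 54232 genes in the count table, and all 47 passed the filter on low counts, with between 94 and 58059 reads in a library. The choice used names and not measured values, but it was made with earlier results of these data known.

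These proteins are ATP-driven enzymes that bind RNA, open short duplexes or strip proteins from RNA. DEAD-box members clamp onto RNA and release it with ATP hydrolysis, while DEAH-box members move along it and are switched on by G-patch partner proteins. Nearly every step from ribosome assembly through splicing, nuclear export and translation to RNA decay uses at least one of them, and a resting T cell that meets antigen enlarges its ribosome and RNA output before it divides.

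The study compared Ddx55-knockout (KO) and wild-type (WT) mouse naive CD4+ T cells, purified from spleen and what the labels call pLN. KO cells and WT cells were each sampled before stimulation (0 h) and at 8 h and 24 h of culture on plate-bound anti-CD3 (5 ug/ml) with anti-CD28 (2.5 ug/ml), which trigger the antigen receptor and its costimulator. All 6 groups had 2 libraries of total RNA depleted of ribosomal RNA, for a total of 12. Strain, age, allele, promoter, Cre driver and deleted exon were not given in the labels. Nor was it stated that libraries of 1 group were from different animals, and p-values therefore measure only the spread between these libraries, which may be technical.

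Libraries held from 16810375 to 19126498 gene counts. Values are CPM (counts scaled to library size with TMM factors), fold changes are log2 ± SE, and a gene passed at a Benjamini-Hochberg adjusted p under 0.05 from edgeR's quasi-likelihood test over all 15679 tested genes. Ddx55 itself had 19.5 and 18.9 CPM at 0 h, 17.9 and 17.1 CPM at 8 h, and 14.7 and 14.4 CPM at 24 h in KO libraries. In WT libraries Ddx55 had 45.3 and 51.2 CPM at 0 h, 68.8 and 64.1 CPM at 8 h, and 52.9 and 55.2 CPM at 24 h. The KO libraries were the lower at each time, with log2 fold changes of -1.33 ± 0.10, adjusted p = 9.48e-06 at 0 h, -1.92 ± 0.11, adjusted p = 1.17e-07 at 8 h and -1.89 ± 0.11, adjusted p = 5.50e-09 at 24 h. Reads over the gene remained in the KO libraries.

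The 12 T cell markers were read in every library, with a summed level between 4529 and 8804 CPM. Summed levels of genes of other cells differed between the genotypes. The 10 markers of neutrophils and granulocyte progenitors were summed. In KO libraries they came to 509.3 and 509.2 CPM at 0 h and 16.2 and 45.3 CPM at 8 h. In WT libraries they summed to 55.8 and 13.0 CPM at 0 h and 1.43 and 1.11 CPM at 8 h. At 24 h the sums were 21.9 and 86.4 CPM in KO libraries, against 0.593 and 0.433 CPM in WT libraries. The 7 basophil and mast cell markers summed to between 109.8 and 765 CPM in KO libraries and to between 4.87 and 38.0 CPM in WT libraries. Summed CD8 T and NK cell genes were higher in KO libraries at each time, with 158.6 and 98.8 CPM in KO libraries, against 31.3 and 29.3 CPM in WT libraries at 24 h. Within this list Nkg7 passed at 0 h (2.48 ± 0.30, adjusted p = 0.00125) and 8 h (2.38 ± 0.33, adjusted p = 0.00513). Cd8a (1.04 ± 0.46 and 0.95 ± 0.73) and Cd8b1 (0.28 ± 0.21 and 0.03 ± 0.24) passed at neither time. The change from 8 h to 24 h was higher in KO cells for Klrd1 (2.06 ± 0.52, adjusted p = 0.0152). It did not pass for Cd8a (-1.54 ± 0.87) or Cd8b1 (-0.11 ± 0.33). Summed myeloid genes were also higher in KO libraries at each time, with 34.1 and 37.9 CPM in KO libraries, against 15.7 and 12.6 CPM in WT libraries at 24 h. Summed B cell genes ran the other way at 24 h, with 104.4 and 87.9 CPM in KO libraries, against 231 and 246 CPM in WT libraries. The genes of this list pointed in both directions. From 8 h to 24 h the change of Ighm was lower in KO cells than in WT cells (-1.24 ± 0.21, adjusted p = 0.00142). The differences for Cd79b (-2.15 ± 0.72), Cd79a (0.62 ± 0.53) and Igkc (2.56 ± 2.76) did not pass. For 12 proliferation genes the direction turned with time. At 0 h they summed to 721 and 644 CPM in KO libraries, against 475.5 and 422 CPM in WT libraries, and 8 of 12 passed as higher in KO cells, Aurkb and Ccnb1 among them at 2.41 ± 0.28 and 2.38 ± 0.31. At 24 h they summed to 795 and 867 CPM in KO libraries, against 5874 and 5468 CPM in WT libraries, and 12 of 12 were lower in KO cells. The part of these differences in the helicase results below was not tested. In bulk RNA, fewer cells of a type and less RNA per cell cannot be told apart.

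Stretches of 12 bases that matched a search pattern were located in the coding sequence of 44 of the 47 members (GENCODE M21 transcripts, GRCm38). The pattern covered the motif that gives the families their names, DEAD or DEAH, and variants of it. The search pattern was widened after its first form had missed most members. Each line shows 30 bases, with the matched stretch in capitals. Lines are given for the pairs of close relatives whose levels diverged below and for 3 Dhx members.
Eif4a1: ttcgtactgGATGAAGCAGATgaaatgtta
Eif4a2: ttcgttttgGACGAAGCAGATgaaatgttg
Ddx19a: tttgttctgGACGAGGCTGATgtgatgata
Ddx19b: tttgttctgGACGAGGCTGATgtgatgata
Ddx39: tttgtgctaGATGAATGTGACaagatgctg
Ddx39b: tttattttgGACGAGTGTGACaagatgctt
Ddx21: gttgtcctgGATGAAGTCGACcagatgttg
Ddx50: gttgtgcttGATGAAGTAGATcaaatgtta
Dhx33: gtcattttgGACGAGGCCCATgagcggact
Dhx9: gttattgtgGATGAAATTCATgaaagagat
Dhx40: attattttgGATGAAGCCCATgaaagaact
The last codon of the motif was GAC or GAT in 30 of 32 Ddx and Eif4a genes and CAC or CAT in 14 of 15 Dhx genes. The search pattern accepted no last codon other than GAC, GAT, CAC or CAT, and the remaining genes had no match. The search found no match for Ddx24, Ddx1 and Dhx32. It covered only a limited stretch behind a first motif and required set residues around the match. These genes are therefore not shown to lack the named motif. The third codon was TGT in both Ddx39 and Ddx39b, GTC in Ddx21, GTA in Ddx50 and ATT in Dhx9. These stretches therefore do not spell DEAD or DEAH. The same holds for Ddx28 (GTA), Ddx52 (TCA), Dhx29, Dhx30 and Dhx34 (GTC), Dhx36 (ATT) and Dhx57 (GTT), by the same codon. Ddx19a (chr8:110974996-110997800) and Ddx19b (chr8:111003188-111031751) lie next to each other on the minus strand of chromosome 8 (GRCm38). Their windows were identical, and their coding sequences matched at 93.5% of aligned bases, against 78.2% for Eif4a1 and Eif4a2, 81.7% for Ddx39 and Ddx39b, 72.1% for Ddx5 and Ddx17 and 70.8% for Ddx21 and Ddx50.

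Most of the family was higher at 8 h of stimulation than at 0 h. In WT cells 32 of 47 members rose and 8 fell from 0 h to 8 h, that is 68.1% and 17.0% of members, while 61.9% of all tested genes passed, 28.3% upwards and 33.6% downwards. The median log2 fold change was 0.62 over the members and -0.15 over all tested genes. In KO cells 33 rose and 6 fell, beside 61.5% of all tested genes (28.6% upwards and 32.9% downwards). Of the calls, 36 of 40 in WT cells and 37 of 39 in KO cells held whichever single library was left out. The difference between the genotypes in this first step passed for 0 of 47 members by edgeR and 0 by DESeq2, with 3 at an unadjusted p under 0.05. Of all tested genes 0.995% passed, 0.261% with a higher and 0.733% with a lower change in KO cells.

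**Figure D1:**
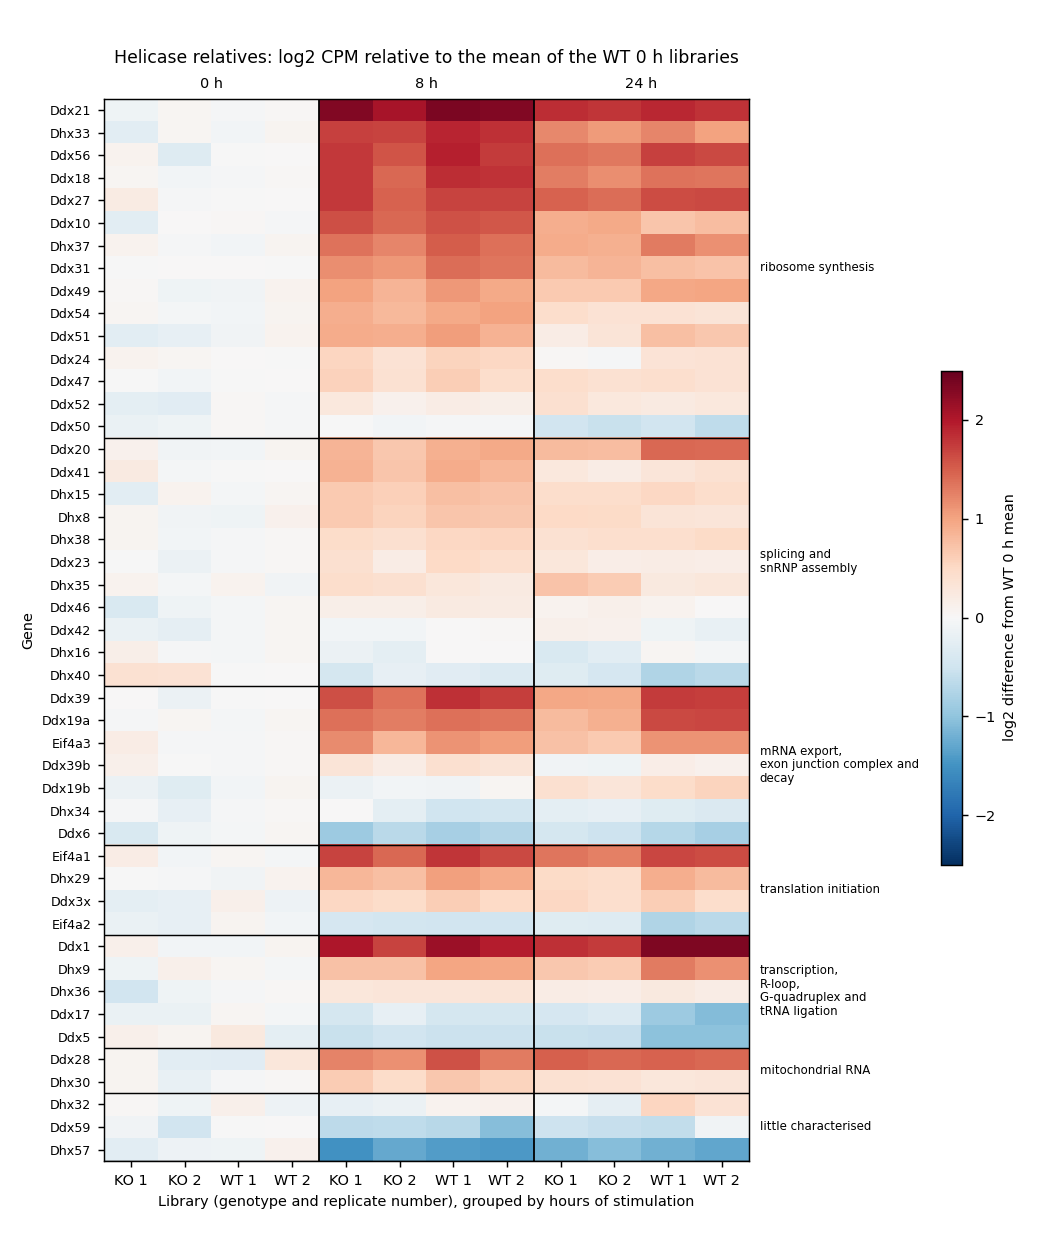
Level of each of the 47 helicase genes in each of the 12 libraries, as the log2 difference in CPM from the mean of the WT libraries at 0 h (color scale from blue, lower, to red, higher), with genes grouped by role and KO libraries left of WT libraries at each time. Most genes of ribosome synthesis turn red at 8 h in both genotypes, and at 24 h Ddx39, Ddx19a, Ddx20 and Ddx1 are paler in the KO libraries than in the WT libraries.

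The group that makes ribosomes led the rise. In WT cells 13 of its 15 members rose from 0 h to 8 h and 0 fell, with a median log2 fold change of 1.37, and in KO cells 14 rose and 0 fell. Ddx21, a nucleolar helicase that acts on RNA polymerase I transcription and pre-ribosomal RNA, had 267 and 295 CPM at 0 h, 1428 and 1203 CPM at 8 h, and 1035 and 988 CPM at 24 h in KO libraries. In WT libraries Ddx21 had 279 and 294 CPM at 0 h, 1468 and 1422 CPM at 8 h, and 1064 and 1004 CPM at 24 h. The libraries at 8 h were the highest in each genotype and did not overlap with the others. Its log2 fold change from 0 h to 8 h was 2.23 ± 0.11, adjusted p = 3.49e-10 in KO cells and 2.33 ± 0.11, adjusted p = 1.85e-10 in WT cells. Its nucleolar relative Ddx50 had 104 and 108 CPM at 0 h, 116 and 112 CPM at 8 h, and 83.9 and 79.7 CPM at 24 h in KO libraries. In WT libraries Ddx50 had 119.5 and 114 CPM at 0 h, 114 and 114 CPM at 8 h, and 83.4 and 75 CPM at 24 h. It did not pass in this step in either genotype, at 0.11 ± 0.09 in KO cells and -0.03 ± 0.09 in WT cells. Per kilobase of exon, the ratio of Ddx21 to Ddx50 was 24.0 and 21.0 in KO libraries at 8 h, against 5.00 and 5.36 at 0 h, and 25.1 and 24.4 in WT libraries at 8 h, against 4.57 and 5.04 at 0 h.

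Dhx33, a DEAH-box helicase of ribosomal RNA production, had 44.1 and 54.7 CPM at 0 h, 172 and 171 CPM at 8 h, and 121 and 111 CPM at 24 h in KO libraries. In WT libraries Dhx33 had 50.3 and 55.7 CPM at 0 h, 199 and 186 CPM at 8 h, and 123 and 107 CPM at 24 h. The 0 h libraries lay far below the others. The Dhx33 step from 0 h to 8 h came to 1.80 ± 0.11, adjusted p = 4.06e-09 in KO cells and 1.86 ± 0.11, adjusted p = 2.38e-09 in WT cells. Ddx56, an assembly factor of the large ribosomal subunit, had 52.1 and 39.4 CPM at 0 h, 167 and 145 CPM at 8 h, and 128 and 122 CPM at 24 h in KO libraries. In WT libraries Ddx56 had 48.7 and 49.2 CPM at 0 h, 189 and 164 CPM at 8 h, and 160.3 and 155 CPM at 24 h. Again the 0 h libraries were the lowest. The Ddx56 step came to 1.77 ± 0.12, adjusted p = 1.13e-08 in KO cells and 1.85 ± 0.12, adjusted p = 6.02e-09 in WT cells. Ddx18, another nucleolar helicase, had 92.3 and 85.2 CPM at 0 h, 304 and 242 CPM at 8 h, and 217 and 201 CPM at 24 h in KO libraries. In WT libraries Ddx18 had 88.1 and 91.5 CPM at 0 h, 325 and 312 CPM at 8 h, and 230.4 and 226 CPM at 24 h. In Ddx18, KO replicate 2 was the lowest of the 8 h libraries. Of the 100-base windows of the Ddx18 transcript, 39.8% also occur in transcripts of other genes such as Gm16433. Ddx10, which is needed for the small subunit in yeast (as Dbp4), had 51.7 and 62.5 CPM at 0 h, 192 and 169.5 CPM at 8 h, and 117 and 119.6 CPM at 24 h in KO libraries. In WT libraries Ddx10 had 63.3 and 61.6 CPM at 0 h, 187 and 183 CPM at 8 h, and 100.4 and 107 CPM at 24 h. For Ddx10 the rise was 1.66 ± 0.10, adjusted p = 3.19e-09 in KO cells and 1.56 ± 0.10, adjusted p = 4.80e-09 in WT cells, and at 24 h all libraries of both genotypes lay between their 0 h and 8 h levels.

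Ddx52, whose yeast relative is Rok1 of the small subunit, went with the group in KO cells alone by the threshold. It had 62.3 and 60.9 CPM at 0 h, 89.3 and 79.5 CPM at 8 h, and 97.9 and 89.5 CPM at 24 h in KO libraries. In WT libraries Ddx52 had 75.5 and 73 CPM at 0 h, 84.3 and 81.8 CPM at 8 h, and 86.7 and 89.1 CPM at 24 h. The step was 0.45 ± 0.09, adjusted p = 0.00051 in KO cells and 0.16 ± 0.09, adjusted p = 0.138 in WT cells. The difference between the steps did not pass for Ddx52, at 0.29 ± 0.13, adjusted p = 0.391.

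From 8 h to 24 h the ribosome group turned down. In WT cells 8 of 15 members fell and 0 rose, and in KO cells 11 fell and 0 rose. Over all 47 members, 5 rose and 16 fell in WT cells, beside 43.3% of all tested genes (24.0% upwards and 19.3% downwards). In KO cells 1 rose and 17 fell, beside 34.4% (18.9% upwards and 15.6% downwards). The fall of Ddx10 was -0.61 ± 0.10, adjusted p = 0.000296 in KO cells and -0.83 ± 0.10, adjusted p = 9.69e-06 in WT cells, and that of Dhx33 was -0.56 ± 0.11, adjusted p = 0.00114 in KO cells and -0.75 ± 0.11, adjusted p = 6.56e-05 in WT cells. The KO count depended on single libraries: 11 members passed without KO 8 h replicate 1 and 10 without KO 24 h replicate 2, and 10 of the 18 calls held in every such fit. In WT cells 13 of 21 did.

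Ddx31, a nucleolar helicase, had 23 and 23.4 CPM at 0 h, 52.1 and 48.9 CPM at 8 h, and 40.3 and 42.1 CPM at 24 h in KO libraries. In WT libraries Ddx31 had 23.4 and 23.1 CPM at 0 h, 61 and 58.8 CPM at 8 h, and 38.9 and 37.9 CPM at 24 h. It was highest at 8 h in each genotype. Ddx54, a nucleolar helicase also described as a nuclear receptor corepressor, had 135 and 125 CPM at 0 h, 244 and 228 CPM at 8 h, and 175 and 167 CPM at 24 h in KO libraries. In WT libraries Ddx54 had 123 and 137 CPM at 0 h, 251 and 262 CPM at 8 h, and 166 and 163 CPM at 24 h. The 8 h libraries were again the highest. In WT cells the fall from 8 h to 24 h was -0.64 ± 0.09, adjusted p = 5.90e-05 for Ddx31 and -0.64 ± 0.09, adjusted p = 3.86e-05 for Ddx54. Ddx51, whose yeast relative Dbp6 serves the large subunit, had 39.8 and 41.5 CPM at 0 h, 91 and 89.7 CPM at 8 h, and 54 and 59.8 CPM at 24 h in KO libraries. In WT libraries Ddx51 had 44.6 and 50.8 CPM at 0 h, 98.7 and 87.2 CPM at 8 h, and 79.8 and 75.6 CPM at 24 h. Its fall to 24 h was -0.67 ± 0.10, adjusted p = 0.00015 in KO cells and -0.26 ± 0.10, adjusted p = 0.0494 in WT cells, and the WT call was lost in 8 of the 12 fits that left out a library. The difference between these falls did not pass, at -0.41 ± 0.14, adjusted p = 0.0698.

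Few members differed between the genotypes before 24 h. At 0 h, 1 of 47 members passed between KO and WT cells and 7 had an unadjusted p under 0.05, beside 5.7% of all tested genes (4.63% higher and 1.07% lower in KO cells). That gene was Dhx40, a little-studied DEAH-box protein grouped here with splicing, with 79.1 and 77.3 CPM in KO libraries, against 60.2 and 60.6 CPM in WT libraries, and its log2 fold change was 0.37 ± 0.10, adjusted p = 0.0429. The KO libraries lay above the WT libraries, but the call was lost without either replicate of either genotype at 0 h, where the fold change ranged from 0.36 to 0.39 and the adjusted p from 0.0614 to 0.199, and without either WT replicate at 8 h (0.0685 and 0.0688). With only the 4 libraries compared the adjusted p was 0.11. Without KO 0 h replicate 2, Ddx46 (-0.39) and Dhx36 (-0.47) passed in its place. At 8 h, 0 of 47 passed by edgeR and 0 by DESeq2, 5 had an unadjusted p under 0.05, and 2.65% of all tested genes passed (1.9% higher and 0.746% lower in KO cells). Without KO 8 h replicate 1, 1 member passed at 8 h, Ddx39 (-0.43).

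At 24 h 21 of 47 members differed between KO and WT cells, 6 higher and 15 lower. That is 44.7% of members beside 38.5% of all tested genes, so the total lay near the background. By direction it was 12.8% of members higher beside 17.9% of all genes, and 31.9% lower beside 20.7%. The median log2 fold change was -0.05 over the members and 0.02 over all tested genes. The count was 12 without KO 24 h replicate 1, 13 without KO 24 h replicate 2 and 13 without WT 24 h replicate 1. The 9 calls that held whichever single library was left out were those of Ddx20, Dhx35, Ddx19a, Ddx39, Eif4a2, Ddx1, Ddx17, Dhx9 and Dhx32. Summed over all 47 genes, helicase RNA came to 12310 and 11970 CPM in KO libraries, against 12700 and 12270 CPM in WT libraries.

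**Figure D2:**
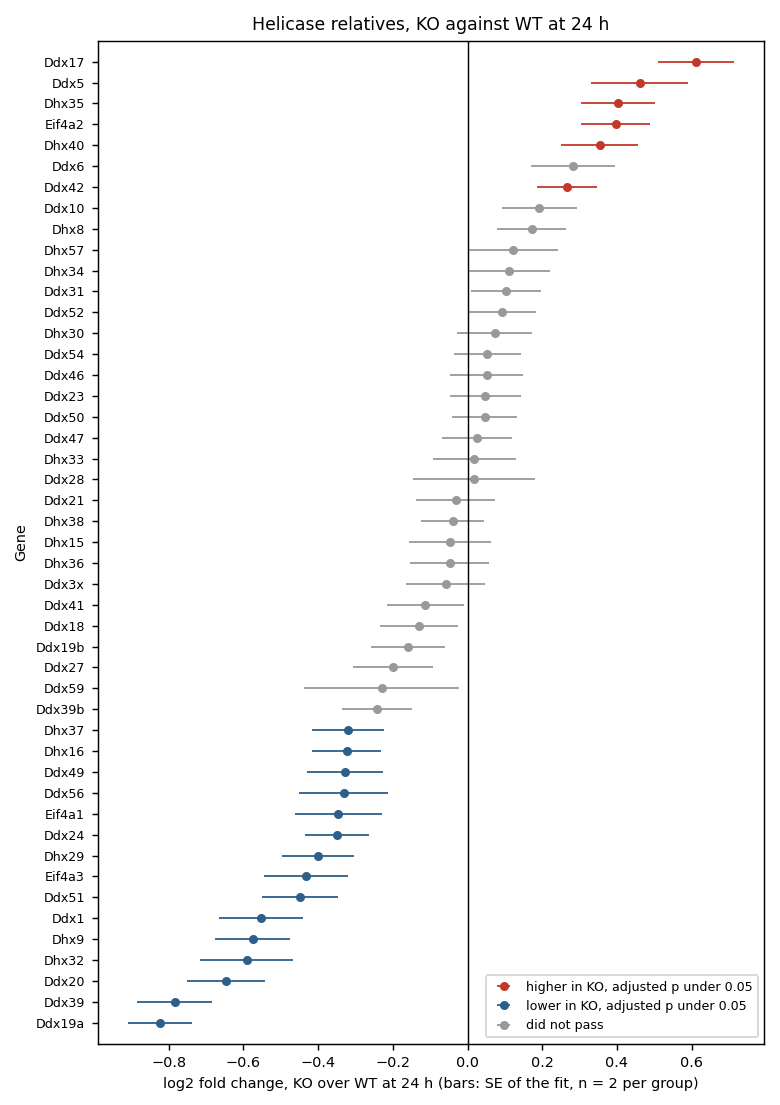
Log2 fold change of each of the 47 helicase genes in KO over WT cells at 24 h, in order of size. Bars show the SE, derived from the F statistic of the edgeR fit (2 libraries per group). Red marks the 6 genes higher in KO cells, blue the 15 lower and grey those that did not pass. The changes run from -0.82 for Ddx19a to 0.61 for Ddx17.

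Among the 47 members, the lowest log2 fold changes in KO cells at 24 h were those of the export helicases Ddx19a and Ddx39. Their relatives Ddx19b and Ddx39b did not pass. In the group of export, exon junction and decay 0 of 7 members were higher and 3 lower (42.9%), with a median of -0.24, beside 17.9% higher and 20.7% lower of all tested genes. Ddx19a, which at the cytoplasmic face of the nuclear pore strips export factors from messenger RNA, had 56.3 and 59.5 CPM at 0 h, 149 and 139 CPM at 8 h, and 98.9 and 106 CPM at 24 h in KO libraries. In WT libraries Ddx19a had 55.4 and 59 CPM at 0 h, 148 and 145 CPM at 8 h, and 180.2 and 182 CPM at 24 h. At 24 h the KO libraries lay well below the WT libraries, with a log2 fold change of -0.82 ± 0.09, adjusted p = 2.83e-06. From 8 h to 24 h Ddx19a changed by -0.50 ± 0.09, adjusted p = 0.000429 in KO cells and by 0.31 ± 0.08, adjusted p = 0.00835 in WT cells. The WT call was lost without WT 8 h replicate 2 or either WT replicate at 24 h.

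Ddx19b, the neighbouring gene with the same function, had 54.4 and 48.4 CPM at 0 h, 54.1 and 57.4 CPM at 8 h, and 79.4 and 73.4 CPM at 24 h in KO libraries. In WT libraries Ddx19b had 57.2 and 62.6 CPM at 0 h, 56 and 61.8 CPM at 8 h, and 82.2 and 88.4 CPM at 24 h. Its KO and WT libraries at 24 h did not overlap, but the difference of -0.16 ± 0.10, adjusted p = 0.231 did not pass. Ddx19b rose from 8 h to 24 h in both genotypes, by 0.45 ± 0.10, adjusted p = 0.00289 in KO cells and 0.54 ± 0.10, adjusted p = 0.000553 in WT cells. Per kilobase of exon the ratio of Ddx19a to Ddx19b was 2.84 and 3.30 in KO libraries at 24 h, against 5.00 and 4.71 in WT libraries. Of the 100-base windows of the Ddx19a transcript, 23.2% also occur in Ddx19b. The treatment of such reads by the authors' counting was not given in the sources used here, so the split between these genes is uncertain.

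Ddx39, an export helicase that loads onto the TREX complex, had 111 and 98.7 CPM at 0 h, 336 and 280.3 CPM at 8 h, and 213 and 212 CPM at 24 h in KO libraries. In WT libraries Ddx39 had 109.6 and 109.7 CPM at 0 h, 389 and 362 CPM at 8 h, and 368 and 364 CPM at 24 h. The KO libraries at 24 h sat below both WT libraries, with a log2 fold change of -0.78 ± 0.10, adjusted p = 2.23e-05. Its near twin Ddx39b (also UAP56), which serves both splicing and export, had 491 and 445 CPM at 0 h, 559.7 and 515 CPM at 8 h, and 422 and 415 CPM at 24 h in KO libraries. In WT libraries Ddx39b had 439 and 462 CPM at 0 h, 594 and 567 CPM at 8 h, and 505 and 484 CPM at 24 h. Ddx39b was likewise lower in both KO libraries at 24 h, but its difference of -0.24 ± 0.09, adjusted p = 0.0523 did not pass. The ratio of Ddx39 to Ddx39b per kilobase was 0.371 and 0.375 in KO libraries, against 0.534 and 0.551 in WT libraries at 24 h. Ddx39 overlaps Adgre5, which lies on the other strand and did not pass at 24 h (0.26 ± 0.18, adjusted p = 0.301). Whether counting used strand was left unstated, so reads of overlapping genes may be mixed.

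Eif4a3, the RNA clamp of the exon junction complex, had 147 and 126 CPM at 0 h, 294 and 230.2 CPM at 8 h, and 215 and 205 CPM at 24 h in KO libraries. In WT libraries Eif4a3 had 127 and 133 CPM at 0 h, 284 and 267 CPM at 8 h, and 284 and 283 CPM at 24 h. It was lower in KO cells at 24 h, at -0.43 ± 0.11, adjusted p = 0.00705, a call lost without KO 24 h replicate 2. Ddx6, a helicase of translational repression and decapping, had 432 and 523 CPM at 0 h, 299 and 355 CPM at 8 h, and 414 and 394 CPM at 24 h in KO libraries. In WT libraries Ddx6 had 548 and 579.9 CPM at 0 h, 319 and 341 CPM at 8 h, and 345 and 318 CPM at 24 h. Both genotypes were lower at 8 h than at 0 h, at -0.54 ± 0.11, adjusted p = 0.000696 in KO cells and -0.77 ± 0.11, adjusted p = 2.64e-05 in WT cells. At 24 h the KO libraries of Ddx6 were the higher, but the difference of 0.28 ± 0.11, adjusted p = 0.0613 did not pass. Dhx34, a factor of nonsense-mediated decay, had 45.6 and 40.4 CPM at 0 h, 46.9 and 39.4 CPM at 8 h, and 39.4 and 40.5 CPM at 24 h in KO libraries. In WT libraries Dhx34 had 45.9 and 47.6 CPM at 0 h, 33.3 and 34 CPM at 8 h, and 37.7 and 36.3 CPM at 24 h. It fell from 0 h to 8 h in WT cells (-0.47 ± 0.11, adjusted p = 0.00149), and did not pass in KO cells (0.00 ± 0.11).

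Known partners of these helicases were counted from lists, to be read beside the 17.9% higher and 20.7% lower of all tested genes at 24 h. Of 8 tested mRNA export cofactors, 0 were higher and 3 (37.5%) lower in KO cells at 24 h, with Alyref, a TREX adaptor, at -1.06 ± 0.10, adjusted p = 1.07e-06 and the pore protein Nup214, which binds DDX19, at -0.57 ± 0.10, adjusted p = 0.000284. Of 4 exon junction partners 0 were higher and 1 (25.0%) lower, Magoh at -0.41 ± 0.12, adjusted p = 0.0144. Of 9 decay and repression partners of Ddx6, 1 was higher and 1 lower (11.1% each), both shares below those of all tested genes. These were the decapping enzyme Dcp2 at -0.98 ± 0.20, adjusted p = 0.00299 and its activator Dcp1a at 0.29 ± 0.09, adjusted p = 0.0222.

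In translation initiation the 2 main forms of the cap-complex helicase moved in opposite directions. Eif4a1, the more abundant form in stimulated cells, had 577 and 486 CPM at 0 h, 1644 and 1370.0 CPM at 8 h, and 1290.0 and 1219 CPM at 24 h in KO libraries. In WT libraries Eif4a1 had 525 and 489.6 CPM at 0 h, 1756 and 1595 CPM at 8 h, and 1612 and 1576 CPM at 24 h. At 24 h its KO libraries were below its WT libraries. Eif4a2, its close relative, had 717 and 699.7 CPM at 0 h, 602 and 579 CPM at 8 h, and 646 and 638 CPM at 24 h in KO libraries. In WT libraries Eif4a2 had 845 and 760.2 CPM at 0 h, 577 and 576 CPM at 8 h, and 476 and 500.0 CPM at 24 h. Here the KO libraries at 24 h were above the WT libraries. The log2 fold changes were -0.35 ± 0.12, adjusted p = 0.0295 for Eif4a1 and 0.40 ± 0.09, adjusted p = 0.00321 for Eif4a2. The Eif4a1 call was lost without any one of the 24 h libraries.

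From 0 h to 8 h Eif4a1 rose by 1.505 ± 0.12, adjusted p = 4.11e-08 in KO cells and 1.72 ± 0.12, adjusted p = 8.62e-09 in WT cells. Eif4a2 fell, at -0.26 ± 0.09, adjusted p = 0.022 in KO cells and -0.48 ± 0.09, adjusted p = 0.00034 in WT cells, and its KO call was lost in 6 of the 12 fits that left out a library. Per kilobase of exon the ratio of Eif4a1 to Eif4a2 in KO libraries was 0.991 and 0.855 at 0 h, 3.36 and 2.91 at 8 h, and 2.46 and 2.35 at 24 h. In WT libraries it was 0.766 and 0.793 at 0 h, 3.75 and 3.41 at 8 h, and 4.18 and 3.88 at 24 h. Of the Eif4a1 transcript windows, 60.8% also occur in pseudogene transcripts such as Eif4a-ps4. Eif4a2 overlaps Rfc4 on the other strand, which was lower in KO cells at 24 h (-2.10 ± 0.14, adjusted p = 2.41e-08) and averaged 19.2 CPM over the 12 libraries, against 635 CPM for Eif4a2.

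**Figure D3:**
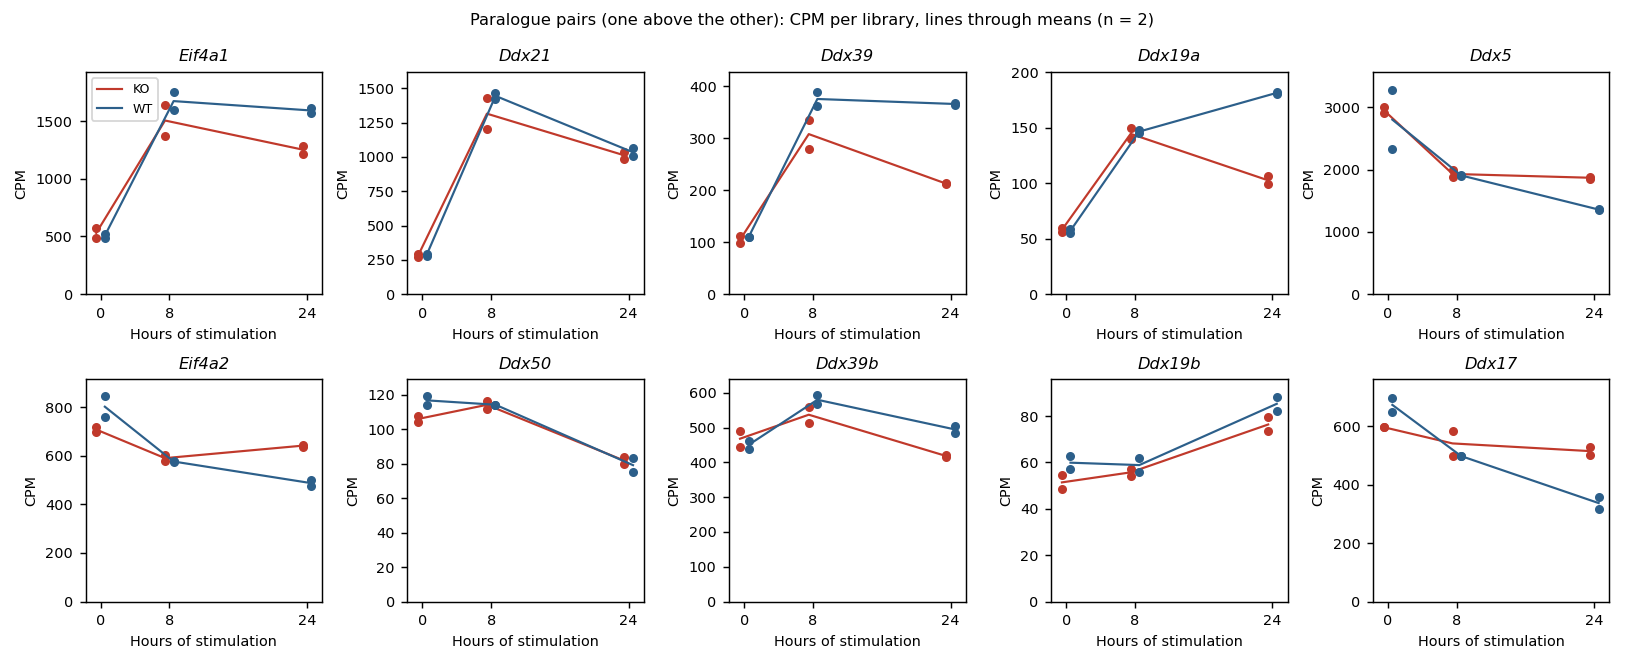
CPM of 5 pairs of related helicases, one above the other, by hours of stimulation, with a point for each library (KO in red, slightly left, and WT in blue) and lines through the means of 2. At 24 h Eif4a1, Ddx39 and Ddx19a are lower and Eif4a2, Ddx5 and Ddx17 higher in KO libraries than in WT libraries, while Ddx21 and Ddx50 overlap between genotypes.

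Dhx29, which helps the small subunit through structured leaders, had 38.8 and 38.5 CPM at 0 h, 69.8 and 65.5 CPM at 8 h, and 54.1 and 52.8 CPM at 24 h in KO libraries. In WT libraries Dhx29 had 36.8 and 41.5 CPM at 0 h, 79.9 and 74.4 CPM at 8 h, and 73.3 and 67.7 CPM at 24 h. It was lower in KO cells at 24 h, at -0.40 ± 0.10, adjusted p = 0.00427, a call lost without KO 24 h replicate 2 or WT 24 h replicate 1. Ddx3x, an X-linked helicase of initiation on structured messages, had 459 and 469 CPM at 0 h, 772 and 739.9 CPM at 8 h, and 774 and 722 CPM at 24 h in KO libraries. In WT libraries Ddx3x had 589.7 and 498 CPM at 0 h, 825 and 762 CPM at 8 h, and 828 and 731 CPM at 24 h. The KO and WT libraries of Ddx3x overlapped at 24 h, and the difference was -0.06 ± 0.11, adjusted p = 0.707. Its Y-linked copy Ddx3y had at most 2 reads in a library and 14 in all, beside 456.6 to 1168 CPM of Xist. Of 7 cap-complex partners and regulators 1 (14.3%) was higher and 2 (28.6%) lower in KO cells at 24 h, beside 17.9% and 20.7% of all tested genes, with the scaffold Eif4g1 at -0.47 ± 0.10, adjusted p = 0.00175 and Eif4g3 at 0.27 ± 0.09, adjusted p = 0.0206.

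Ddx5 was the most abundant member in resting cells. Per kilobase it averaged 512 CPM in KO cells and 485 CPM in WT cells at 0 h, ahead of Eif4a2 at 133 and 150 CPM per kilobase in KO and WT cells. Ddx5 (p68), a cofactor of transcription, splicing and microRNA processing, had 2999 and 2911 CPM at 0 h, 1874 and 1987 CPM at 8 h, and 1887 and 1851 CPM at 24 h in KO libraries. In WT libraries Ddx5 had 3271 and 2334 CPM at 0 h, 1909 and 1904 CPM at 8 h, and 1366 and 1350.0 CPM at 24 h. WT replicate 2 at 0 h stood apart, with 38782 reads against 55381 in replicate 1. At 24 h both KO libraries lay above both WT libraries, at 0.46 ± 0.13, adjusted p = 0.0117, though this call was lost without KO 24 h replicate 1 or either WT replicate at 24 h. From 0 h to 8 h Ddx5 fell, at -0.61 ± 0.13, adjusted p = 0.000844 in KO cells and -0.56 ± 0.13, adjusted p = 0.00177 in WT cells. Without WT 0 h replicate 1 the WT step was -0.29, with an adjusted p of 0.0655.

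Ddx17 (p72), which pairs with Ddx5, had 596 and 596 CPM at 0 h, 499 and 582 CPM at 8 h, and 500.4 and 528 CPM at 24 h in KO libraries. In WT libraries Ddx17 had 697 and 647 CPM at 0 h, 499 and 496 CPM at 8 h, and 356 and 317 CPM at 24 h. In WT cells it fell at each step, at -0.43 ± 0.10, adjusted p = 0.00169 to 8 h and -0.56 ± 0.10, adjusted p = 0.000397 to 24 h. Neither step passed in KO cells, at -0.14 ± 0.10 and -0.07 ± 0.10. At 24 h Ddx17 was higher in both KO libraries than in both WT libraries, with a log2 fold change of 0.61 ± 0.10, adjusted p = 0.000254.

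Dhx9, which resolves R-loops and other structured nucleic acid, had 244 and 288 CPM at 0 h, 436 and 437 CPM at 8 h, and 420.1 and 405 CPM at 24 h in KO libraries. In WT libraries Dhx9 had 271 and 253 CPM at 0 h, 520.3 and 509 CPM at 8 h, and 648 and 581 CPM at 24 h. Its KO libraries at 24 h lay below the WT libraries. Ddx1, the helicase of the tRNA ligase complex, had 69.8 and 60.9 CPM at 0 h, 259 and 207 CPM at 8 h, and 226 and 215 CPM at 24 h in KO libraries. In WT libraries Ddx1 had 61.4 and 66.8 CPM at 0 h, 282 and 249 CPM at 8 h, and 322 and 325 CPM at 24 h. The KO libraries of Ddx1 at 24 h lay below the WT libraries too. The differences were -0.57 ± 0.10, adjusted p = 0.000377 for Dhx9 and -0.55 ± 0.11, adjusted p = 0.00123 for Ddx1. Ddx1 had the second largest rise of the 47 members from 0 h to 8 h, by 1.83 ± 0.12, adjusted p = 4.07e-09 in KO cells and 2.05 ± 0.12, adjusted p = 1.16e-09 in WT cells. Of the 4 other tRNA ligase genes 0 were higher and 3 (75.0%) lower in KO cells at 24 h, beside 17.9% and 20.7% of all tested genes, with Zbtb8os (archease) at -0.63 ± 0.10, adjusted p = 0.000216 and Fam98b at -0.52 ± 0.10, adjusted p = 0.0011. Dhx36, which unwinds G-quadruplexes, had 103 and 103 CPM in KO libraries, against 109 and 104 CPM in WT libraries at 24 h. These lay close together without overlap, and the difference of -0.05 ± 0.10, adjusted p = 0.759 did not pass.

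In the splicing group 3 of 11 members (27.3%) were higher and 2 (18.2%) lower in KO cells at 24 h, near the shares of 17.9% and 20.7% over all tested genes. The calls of Ddx42, Dhx40 and Dhx16 were lost when single libraries were left out. Ddx20 (Gemin3), the helicase of the SMN complex that assembles spliceosomal snRNPs, had 30.2 and 26.4 CPM at 0 h, 50.9 and 44.7 CPM at 8 h, and 48.8 and 48.1 CPM at 24 h in KO libraries. In WT libraries Ddx20 had 26.8 and 29.6 CPM at 0 h, 52 and 54.3 CPM at 8 h, and 76.6 and 75.1 CPM at 24 h. The KO libraries at 24 h were at the level of 8 h and below both WT libraries, at -0.65 ± 0.10, adjusted p = 0.000181. Of 7 SMN complex genes 0 were higher and 3 (42.9%) lower in KO cells at 24 h, with Gemin6 at -0.997 ± 0.14, adjusted p = 7.28e-05 and Gemin8 at -0.86 ± 0.16, adjusted p = 0.000492.

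Ddx42, a helicase of the U2 snRNP, had 168 and 163 CPM at 0 h, 180.4 and 181 CPM at 8 h, and 208 and 205 CPM at 24 h in KO libraries. In WT libraries Ddx42 had 184 and 196 CPM at 0 h, 191 and 194 CPM at 8 h, and 176 and 167 CPM at 24 h. It was higher in KO cells at 24 h by 0.27 ± 0.08, adjusted p = 0.0179, a call lost without either KO replicate or WT replicate 2 at 24 h. Dhx35, a spliceosome-associated protein, had 33 and 30.4 CPM at 0 h, 42.3 and 41.4 CPM at 8 h, and 51.2 and 48.6 CPM at 24 h in KO libraries. In WT libraries Dhx35 had 33.1 and 29.6 CPM at 0 h, 38 and 36.5 CPM at 8 h, and 37.3 and 38.2 CPM at 24 h. The genotypes did not overlap at 24 h, with a log2 fold change of 0.40 ± 0.10, adjusted p = 0.00519. Dhx40 had 79.1 and 77.3 CPM at 0 h, 44.3 and 52.6 CPM at 8 h, and 49 and 45.1 CPM at 24 h in KO libraries. In WT libraries Dhx40 had 60.2 and 60.6 CPM at 0 h, 49.6 and 47.5 CPM at 8 h, and 35.8 and 37.8 CPM at 24 h. It was higher in KO cells at 24 h too, at 0.35 ± 0.10, adjusted p = 0.0136, a call lost without KO or WT replicate 1 at 24 h.

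Dhx16, which acts late in spliceosome activation, had 139.6 and 124 CPM at 0 h, 115 and 107 CPM at 8 h, and 97.1 and 105 CPM at 24 h in KO libraries. In WT libraries Dhx16 had 122 and 131 CPM at 0 h, 127 and 127 CPM at 8 h, and 131 and 122 CPM at 24 h. It was lower in KO cells at 24 h (-0.32 ± 0.09, adjusted p = 0.0123), a call lost without KO or WT replicate 1 at 24 h, and it fell from 0 h to 8 h in KO cells (-0.25 ± 0.09, adjusted p = 0.0294), a call lost in 6 of the 12 fits that left out a library. Ddx41, a helicase of late splicing also described as a nucleic acid sensor, had 82.5 and 68.2 CPM at 0 h, 129.6 and 114 CPM at 8 h, and 85 and 80.9 CPM at 24 h in KO libraries. In WT libraries Ddx41 had 70.8 and 70.8 CPM at 0 h, 135 and 126 CPM at 8 h, and 87.2 and 92.4 CPM at 24 h. From 8 h to 24 h Ddx41 fell, at -0.56 ± 0.10, adjusted p = 0.000757 in KO cells and -0.54 ± 0.10, adjusted p = 0.000586 in WT cells, and its KO and WT libraries at 24 h differed by -0.11 ± 0.10, adjusted p = 0.417, which did not pass. Of 16 G-patch proteins, the activators of DEAH-box helicases, 4 (25.0%) were higher and 3 (18.8%) lower in KO cells at 24 h, near the shares over all tested genes. The examples with the smallest p were Rbm5 at 0.51 ± 0.09, adjusted p = 0.000262 and Gpatch3 at 0.53 ± 0.15, adjusted p = 0.0105.

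Ribosome-synthesis helicases at 24 h counted 0 higher and 5 (33.3%) lower of 15 in KO cells, with a median of -0.03, beside 17.9% higher and 20.7% lower of all tested genes. The 5 were Ddx51 (-0.45 ± 0.10), Ddx24 (-0.35 ± 0.09), Ddx49 (-0.33 ± 0.10), Ddx56 (-0.33 ± 0.12) and Dhx37 (-0.32 ± 0.10), and each of these calls was lost without at least 1 of the 24 h libraries. Ddx49 shares 30.3% of its transcript windows with Homer3. The group's summed level was 2861 and 2732 CPM in KO libraries, against 3035 and 2932 CPM in WT libraries.

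The mitochondrial helicases Ddx28 and Dhx30, which serve the mitochondrial ribosome, rose from 0 h to 8 h in both genotypes. Ddx28 had 9.8 and 7.77 CPM at 0 h, 22 and 20.6 CPM at 8 h, and 26.2 and 25.3 CPM at 24 h in KO libraries. In WT libraries Ddx28 had 7.68 and 11.3 CPM at 0 h, 27.9 and 23 CPM at 8 h, and 25.8 and 25.1 CPM at 24 h. Its 0 h libraries were the lowest. The rise was 1.28 ± 0.17, adjusted p = 1.30e-05 in KO cells and 1.43 ± 0.17, adjusted p = 3.72e-06 in WT cells. Neither gene passed between genotypes at 24 h, at 0.02 ± 0.16 for Ddx28 and 0.07 ± 0.10 for Dhx30. Both overlap a gene on the other strand that rose from 0 h to 8 h in WT cells, so reads may be mixed. Smarcc1, at 2.19 ± 0.11, averaged 192 CPM over the 12 libraries, against 173 CPM for Dhx30. Dus2, at 0.65 ± 0.13, averaged 18.2 CPM, against 19.4 CPM for Ddx28.

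Among the little characterised members, Dhx57 had 49 and 54.3 CPM at 0 h, 20.7 and 24.2 CPM at 8 h, and 25.7 and 28.4 CPM at 24 h in KO libraries. In WT libraries Dhx57 had 54.9 and 63.4 CPM at 0 h, 22.4 and 21.9 CPM at 8 h, and 25.8 and 23.9 CPM at 24 h. Its fall from 0 h to 8 h was the largest of the 47 members, -1.20 ± 0.12, adjusted p = 4.81e-07 in KO cells and -1.42 ± 0.12, adjusted p = 7.19e-08 in WT cells. Dhx32 had 24.6 and 22.2 CPM at 0 h, 20.8 and 21.5 CPM at 8 h, and 23 and 20.4 CPM at 24 h in KO libraries. In WT libraries Dhx32 had 26.2 and 22 CPM at 0 h, 25.4 and 25.8 CPM at 8 h, and 34.8 and 30.7 CPM at 24 h. Its KO libraries at 24 h lay below the WT libraries, at -0.59 ± 0.12, adjusted p = 0.00161. Dhx32 overlaps Bccip and Fank1 on the other strand, so reads may be mixed. Bccip averaged 126 CPM over the 12 libraries, against 24.8 CPM for Dhx32, and did not pass at 24 h (-0.05 ± 0.09, adjusted p = 0.676). Ddx59 had 10.7 and 8.22 CPM at 0 h, 7.28 and 7.4 CPM at 8 h, and 8.01 and 7.66 CPM at 24 h in KO libraries. In WT libraries Ddx59 had 11.4 and 11.6 CPM at 0 h, 7.06 and 5.51 CPM at 8 h, and 7.54 and 10.8 CPM at 24 h. It had the lowest level per kilobase of the 47 genes in each group, and its KO and WT libraries overlapped at 24 h. In WT cells it fell to 8 h, at -0.87 ± 0.21, adjusted p = 0.00221 and rose to 24 h by 0.55 ± 0.21, adjusted p = 0.0488, the rise being lost in 8 of the 12 fits that left out a library. Neither step of Ddx59 passed in KO cells, at -0.37 ± 0.21 and 0.09 ± 0.21.

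The change from 8 h to 24 h differed between the genotypes for 5 members, 2 with a higher and 3 with a lower change in KO cells, that is 10.6% of members beside 14.4% of all tested genes (5.49% higher and 8.96% lower). Ddx19a differed by -0.80 ± 0.12, adjusted p = 0.000359, Ddx39 by -0.50 ± 0.14, adjusted p = 0.0276 and Ddx20 by -0.49 ± 0.15, adjusted p = 0.0356. Ddx17 differed by 0.49 ± 0.14, adjusted p = 0.0329 and Ddx42 by 0.36 ± 0.12, adjusted p = 0.0495. Ddx19a passed whichever single library was left out, from -0.85 to -0.75. The count was 1 without KO replicate 1 at 8 h, either KO replicate at 24 h, either WT replicate at 8 h or WT replicate 2 at 24 h. It was 2 without WT replicate 1 at 24 h.

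**Figure D4:**
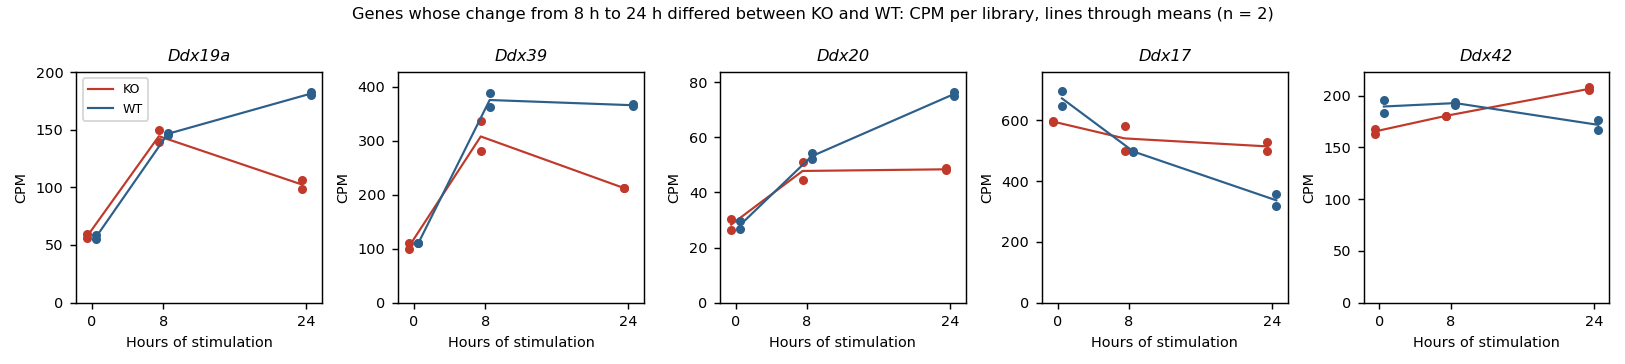
CPM of the 5 helicase genes whose change from 8 h to 24 h differed between genotypes, by hours of stimulation, with a point for each library (KO in red, slightly left, and WT in blue) and lines through the means of 2. Ddx19a and Ddx39 turn down in KO cells after 8 h, Ddx20 stays at 48.8 and 48.1 CPM in KO cells at 24 h against 76.6 and 75.1 CPM in WT cells, and Ddx17 and Ddx42 end higher in KO cells.

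Promoter sequence was read for 43 of the 47 members from RefSeq entries (GRCm38.p6, a short stretch around each start), on both strands and with 6 motifs chosen when expression results were known. A member was counted if any of its promoter entries held the motif, while the second share of each pair is over single entries. Members with several entries had more chances of a match, so the shares are not like for like. The letters CCGGAAGT occurred in 23.3% of members and 3.89% of 32851 promoter entries, and TGACGTCA, the cyclic AMP response element, in 11.6% and 1.79%. CACGTG, the E-box, occurred in 14.0% and 7.15%, CCAATC in 25.6% and 16.1%, CGCGAGA in 9.3% and 2.56%, and the palindrome of the factor NRF1 in 4.65% and 0.971%. The promoters with TGACGTCA were those of Ddx19a, Ddx28, Ddx49, Ddx51 and Dhx36, and all 5 genes rose from 0 h to 8 h in WT cells, as did 32 of all 47. The Dhx36 call was lost in 3 of the 12 fits that left out a library. The motif stands in capitals in these windows of 30 bases, shown for the 4 where it lies before the start.
Ddx19a (chr8:110997827-110997856, minus strand): ggggcaggaacTGACGTCAactccgcgcgg
Ddx49 (chr8:70302546-70302575, minus strand): gggtctctccgTGACGTCAcattcctccgc
Ddx51 (chr5:110653396-110653425, plus strand): agtcgcgcccgTGACGTCAcccgagcctct
Dhx36 (chr3:62507076-62507105, minus strand): ggcgccgtccgTGACGTCAccggaaatgtc
A match says that the letters are in the window, and no binding was measured.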

How the data were processed

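Total RNA depleted of ribosomal RNA was sequenced as stranded paired reads, per the labels' protocols. The submitters' processing notes name fastp 0.12.4, STAR 2.7.1a and mm10 without their roles. The deposited gene table holds the authors' raw counts, whole numbers per gene and library. The counter, annotation, strand setting and handling of reads with several matches were not given in the sources used here. A table of repeat loci was not used here.

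Of 54232 genes 54079 matched a symbol (GENCODE M21). edgeR 4.0.16 in R 4.3.3 tested 15679 genes that passed filterByExpr (minimum count 10, minimum total 15), with TMM factors, 1 mean for each of the 6 groups and 6 residual degrees of freedom. Tests were two-sided, and p-values were adjusted over all tested genes with a threshold of 0.05. The SE of an edgeR fold change was its absolute log2 value divided by the square root of the F statistic. CPM per kilobase used the union of exons. The procedure was tested on simulated data. Alternatives were RLE size factors, DESeq2 1.42.0, other filters, smaller fits, a replicate block and leaving out libraries. Replicates of each group differed by more than sampling noise, so none was merged. Depth gives at least 94 reads for every member.

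The members, role groups and partner lists were chosen with earlier results of these data known. Genes with values in every library were Ddx55, up to 6 members per direction with the largest passing fold change in each comparison, fixed pairs of relatives, members passing in a difference of steps, and members against their group. Lists were read by counts, with up to 2 examples by p. The 6 promoter motifs, the genes on the other strand and the settings without the KO libraries of 1 number were chosen after seeing the data.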

Additional observations from a re-analysis of the deposited data

Results flagged for a closer look

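A direct test (log2, edgeR quasi-likelihood) found that the change from 8 h to 24 h differed between genotypes for 5 of 47 helicase genes. That share lay below the 14.4% of all tested genes that passed the same test. Ddx19a differed by -0.80, Ddx39 by -0.50 and Ddx20 by -0.49, each a lower change in KO cells. Ddx17 differed by 0.49 and Ddx42 by 0.36, each a higher change in KO cells. Over the same interval the summed level of 12 proliferation genes was 795 and 867 CPM at 24 h, against 687 and 654 CPM at 8 h in KO libraries, and 5874 and 5468 CPM at 24 h, against 844 and 827 CPM at 8 h in WT libraries, and its part in these differences was not tested. The Ddx42 call was lost without any one of the 8 h or 24 h libraries or either WT replicate at 0 h. The calls of Ddx39, Ddx20 and Ddx17 were also lost when some single libraries were left out. Groups of 2 libraries were too small for a check of single libraries against their group.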

How the results depend on the processing

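The number of helicase genes past the threshold under RLE size factors, DESeq2, no filter and a filter on CPM stayed within 1.5 times the reported number in all 9 comparisons. With only the libraries compared, the number at 0 h between KO and WT was 0, and in the other comparisons it stayed within that range. Leaving out each library in turn gave between 0 and 2 at 0 h, between 0 and 1 at 8 h and between 12 and 23 at 24 h for KO against WT. For KO at 24 h against 8 h it gave between 10 and 22, and for the difference between the genotypes in that step between 1 and 7. In these fits a group left with 1 library was assumed to vary like the others. In 2 settings added after seeing the data, all KO libraries of one replicate number were left out. Without those numbered 1 the number was 3 at 8 h, 11 for KO at 24 h against 8 h and 1 for the difference in that step. Without those numbered 2 it was 4 at 0 h, 1 at 8 h and 9 for the difference. No result past the threshold reversed; 58 values that passed in neither fit changed sign by more than their SE.

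Same-numbered KO and WT libraries deviated from their group means with a correlation of 0.24 at 0 h, 0.14 at 8 h and 0.01 at 24 h. Across times the correlation was 0.29, 0.22 and 0.11 among KO libraries and 0.22, 0.11 and 0.09 among WT libraries (0 h with 8 h, 8 h with 24 h, and 0 h with 24 h). Basophil and mast cell genes were also higher in KO replicate 2 than in KO replicate 1 at each time (765 against 285 CPM at 0 h, 366 against 109.8 at 8 h and 585 against 160.3 at 24 h). These are hints from the data that the numbers run across times in KO cells. The labels tie them to no shared animal or day, and each group has only 2, so the reported fits have no block. With a replicate block the numbers were 1, 0 and 23 for KO against WT at 0 h, 8 h and 24 h. From 0 h to 8 h they were 39 in KO cells and 40 in WT cells, and from 8 h to 24 h 21 in KO cells and 24 in WT cells. For the difference in the step they were 0 for the earlier step and 5 for the later one, so each stayed within 1.5 times the reported number.

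With 2 libraries per group, small differences near the SE of about 0.1 log2 units were not detectable, and a gene that did not pass is not shown to be equal.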

Other observations

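Helicases other than the 47 members, some of them with DDX names, were counted for comparison. Of 22 listed genes 17 were tested, and in KO cells at 24 h 1 (5.88%) was higher and 4 (23.5%) were lower, beside 17.9% and 20.7% of all tested genes, so the lower share lay near the background. Ddx11, a helicase of sister chromatid cohesion, was lower, at -0.80 ± 0.12, adjusted p = 7.48e-05, and Ddx43 was lower too, at -2.11 ± 0.36, adjusted p = 0.000303. Znfx1, a helicase of RNA-level antiviral defence, was higher by 0.69 ± 0.11, adjusted p = 0.000151. From 0 h to 8 h in WT cells 4 of the 17 (23.5%) rose and 8 (47.1%) fell, beside 28.3% and 33.6% of all tested genes. Supv3l1, the mitochondrial RNA degradation helicase, rose by 1.498 ± 0.10, adjusted p = 4.32e-09, and Mov10, a helicase that restrains retroelements, fell, at -1.74 ± 0.12, adjusted p = 9.70e-09.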
